A study of Mus musculus with 12 samples.

Results

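The 7 genes followed here belong to the selection and programming of innate T cells, and their transcripts were measured in thymocytes with and without normal Bcl11b. They are Zbtb16, Slamf1, Slamf6, Ly9, Cd244, Sh2d1a and Cd1d1, taken by symbol from a table of 23234 features, and all 7 were found there. Of the 7, 5 had a mean of at least 1 FPKM (fragments scaled to transcript length and library size) over the 12 libraries and entered the test with 10780 features in all, whereas Zbtb16 and Cd244 lay below that level.

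The study asked whether an earlier event is needed to link T cell receptor signals to lineage choice. It examined the zinc finger transcription factor Bcl11b in thymocytes before and after positive selection. RNA-seq was performed on cells labelled as CD4+CD8+ double-positive (DP) thymocytes of the CD24hiTCRβlo pre-selection phenotype from mice on the C57BL/6 background. The extraction text that the labels attach to every library describes something else, a sort of double-negative NKT cells after depletion of CD4+ and CD8+ cells, and the texts do not settle which sort was used. The cells are called DP thymocytes here after their labels and their markers. The wild-type group held 5 libraries from newborn mice. The Bcl11bm/m group held 3 libraries from newborn mice homozygous for an allele with a frameshift, whose truncated protein lacks the final zinc finger; these animals die as neonates, and the allele acts in every cell throughout development. The Bcl11bfl/fl:Cd4-Cre group (abbreviated cKO, for conditional knockout) held 4 libraries from mice in which Cre driven by Cd4 regulatory elements deletes a floxed Bcl11b allele, so that the factor is lost only around the DP stage. The labels give no age for that last group, and age and genotype cannot be told apart where it is compared with newborn mice. The free-text descriptions contradict the titles in 2 of the 3 groups: they name Bcl11bm/m for the 5 libraries titled wild-type and Bcl11b+/+ for the 4 titled cKO. The titles were followed, and every comparison rests on them. Zbtb7b, the gene of ThPOK, measured 0 to 0.216 FPKM in the libraries titled wild-type. It measured 41.1 to 50.4 FPKM in those titled Bcl11bm/m and 9.44 to 56.6 FPKM in those titled cKO. The paper reports a reporter of this gene as absent from control pre-selection thymocytes and as de-repressed in both mutants. Whether the titles or the descriptions hold was not tested. Nothing states which libraries came from separate mice, so the p-values measure only the spread between the libraries of a group.

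Innate-like T cells, of which invariant natural killer T (NKT) cells are the best known, arise from DP thymocytes that are selected by other DP thymocytes rather than by thymic epithelium. The selecting cell shows lipid on CD1d, the MHC class I-like molecule that Cd1d1 encodes, and both cells engage each other through receptors of the SLAM family, mostly homophilic, which include SLAM itself (Slamf1), Ly108 (Slamf6) and CD229 (Ly9). The adaptor SAP, encoded by Sh2d1a, couples the cytoplasmic tails of these receptors to the kinase Fyn. Cells that receive these signals switch on PLZF, the BTB zinc finger factor encoded by Zbtb16, which directs the innate effector programme. The receptor 2B4 (Cd244) belongs to the same family but binds CD48 and is best known from NK cells.

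The libraries were those of DP thymocytes by their markers. All 12 genes of a DP marker list averaged at least 1 FPKM in every group, with summed levels of 5581 to 7556 FPKM in wild-type, 4206 to 4728 in Bcl11bm/m and 4075 to 5983 in cKO libraries, and of these genes Rag1, which encodes a recombinase subunit, measured at least 438 FPKM in each library. Bcl11b itself, the targeted gene, measured 132 to 292 FPKM in wild-type, 430 to 482 in Bcl11bm/m and 115 to 140 in cKO libraries. Its gene-level value does not separate the exons or the alleles, and it rose in Bcl11bm/m cells (log2 difference 1.10, SE 0.28, limma adjusted p = 0.0279), a call lost on leaving out 5 of the 8 single libraries (limma adjusted p up to 0.0928), while its difference of -0.68 in cKO cells missed the threshold (limma adjusted p = 0.0828). Depth differed by group: the estimated number of fragments was 4020000 to 6930000 in wild-type, 2740000 to 4190000 in Bcl11bm/m and 10840000 to 45720000 in cKO libraries.

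In Bcl11bm/m cells 3 of the 5 tested members changed: Slamf1 fell, and its neighbours Slamf6 and Ly9 rose. That is to be read against 17.3% of all 10780 features past the same threshold, 9.92% higher and 7.39% lower. In cKO cells 1 of the 5 changed, Slamf6, which rose, against 14.5% of all features past the threshold and 4.65% past it and higher. Between the mutants 1 of the 5 differed, Slamf1, lower in Bcl11bm/m cells, against 10.2% of all features past the threshold and 2.6% past it and lower. Sh2d1a and Cd1d1 passed the threshold in none of the 3 comparisons. Both comparisons with wild-type use the same 5 wild-type libraries, so their values are given side by side and not as independent evidence.

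**Figure D1:**
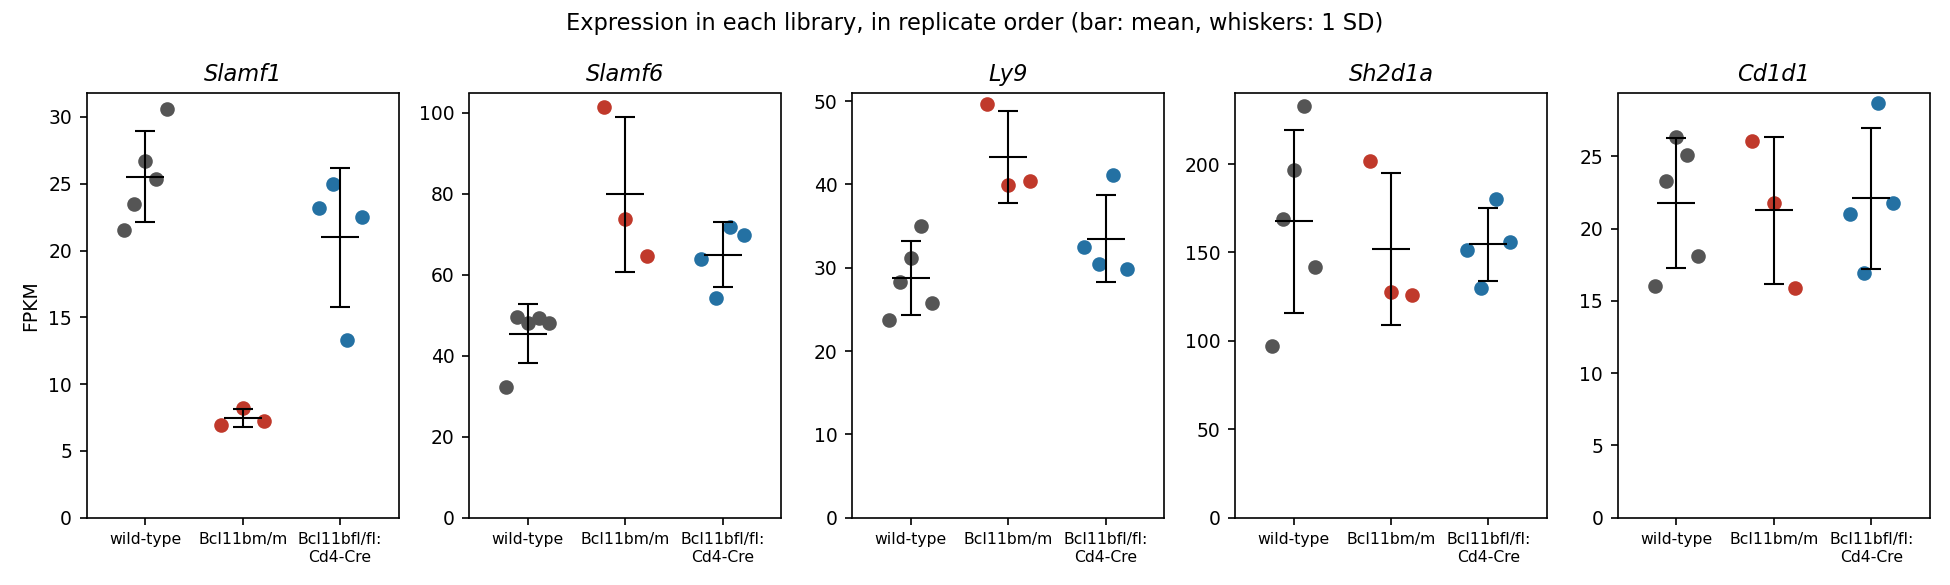
Level of the 5 tested members in each of the 12 libraries, in FPKM on an axis from 0, with 1 point per library in replicate order, a bar at each group mean and whiskers of 1 SD. Slamf1 in the 3 Bcl11bm/m libraries sits between 6.91 and 8.19, below all wild-type and Bcl11bfl/fl:Cd4-Cre (cKO) libraries, while Slamf6 and Ly9 there sit above all wild-type libraries.

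Slamf1, Slamf6, Ly9 and Cd244 lie in 1 cluster of SLAM genes on mouse chromosome 1 that spans 390 kb from Cd244 to Slamf6 (build NCBIM37, also called mm9; chr1:173489324-173879083). In that build Slamf1 occupies chr1:173697258-173731315 on the plus strand, Slamf6 chr1:173847646-173879083 on the plus strand, Ly9 chr1:173518755-173537541 on the minus strand and Cd244 chr1:173489324-173515449 on the plus strand. Because Slamf1 and Slamf6 moved in opposite directions in the same cells, their promoters are shown, as 250 bases before to 50 bases after the annotated start, from RefSeq on build GRCm38.p6. They lie at chr1:171766882-171767181 (Slamf1) and chr1:171917212-171917511 (Slamf6), both on the plus strand. Capitals mark E-boxes, the sites of basic helix-loop-helix factors such as the E proteins, spelled CAGCTG or CAGGTG and searched on both strands.
Slamf1: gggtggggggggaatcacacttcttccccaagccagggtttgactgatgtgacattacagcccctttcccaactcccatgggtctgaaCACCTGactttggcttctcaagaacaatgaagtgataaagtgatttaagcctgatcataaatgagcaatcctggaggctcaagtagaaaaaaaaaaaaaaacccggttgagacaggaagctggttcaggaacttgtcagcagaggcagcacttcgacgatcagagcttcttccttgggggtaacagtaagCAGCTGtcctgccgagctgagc
Slamf6: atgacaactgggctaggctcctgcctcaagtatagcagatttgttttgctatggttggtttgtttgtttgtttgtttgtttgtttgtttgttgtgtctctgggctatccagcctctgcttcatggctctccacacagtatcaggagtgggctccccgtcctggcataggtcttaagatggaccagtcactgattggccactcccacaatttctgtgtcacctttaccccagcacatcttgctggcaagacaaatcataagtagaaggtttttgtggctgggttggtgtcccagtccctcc

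The Slamf1 window held 1 CAGCTG, 28 bases after the start, and 1 CAGGTG read on the minus strand (printed as CACCTG), 162 bases before it. The Slamf6 window held neither. Among 32851 mouse promoters of the same length, 16.3% hold CAGCTG, 20.2% hold CAGGTG and 32.9% hold either. A Runx motif, ACCACA or ACCGCA on either strand, stood in neither window and in 22.4% of all promoters. These letters describe the windows and not sites of binding. Of the other members only Cd244 had a promoter in the same set (3 of 7 members matched), and it held none of these motifs.

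Slamf1 encodes SLAM, a self-ligand receptor on DP thymocytes and a costimulator of T cells. In wild-type cells it measured 21.6, 23.5, 26.7, 25.3 and 30.6 FPKM in libraries 1 to 5. The Bcl11bm/m libraries gave 6.91, 8.19 and 7.22 FPKM. In cKO cells it measured 23.2, 25, 13.3 and 22.5 FPKM. All Bcl11bm/m libraries were lower than every library of both other groups, whereas cKO and wild-type libraries overlapped, library 3 of the former being the low one.

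Slamf1 was 3.13-fold lower in Bcl11bm/m than in wild-type cells on the log2(FPKM + 1) scale, a difference of -1.65 (SE 0.13, 95% interval -1.95 to -1.34, limma adjusted p = 0.000145). A gene-wise exact permutation test gave p = 0.0357, the smallest that 3 against 5 libraries allow. This was the firmest result among the members: it stayed past the threshold under every alternative run, with limma adjusted p between 2.2e-05 and 0.034. Bcl11bm/m cells also lay below cKO cells, by -1.35 (SE 0.21, 95% interval -1.84 to -0.85, limma adjusted p = 0.0125). Here the exact permutation test could not go below p = 0.0571, which it reached. The call was lost when Bcl11bm/m library 3 was left out (limma adjusted p = 0.0537) or when cKO libraries 1 and 4 were both left out (limma adjusted p = 0.128), while the difference itself stayed at -1.19 or below under all alternatives run. Against wild-type, cKO cells differed by -0.30, with a 95% interval from -0.70 to 0.11 (limma adjusted p = 0.304).

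An estimated 47.2 to 83.9 fragments per Bcl11bm/m library, 258 to 456 per wild-type library and 579 to 2641 per cKO library stood behind its values. Estimates of this kind cover counting error only, and in bulk RNA fewer Slamf1-expressing cells and less Slamf1 RNA per cell cannot be told apart. The DP marker sum was also lower in Bcl11bm/m than in wild-type libraries, and 6 of the 12 DP markers fell there, beside 7.39% of all features past the threshold and lower, with a median log2 difference of -0.70 over the list beside -0.021 over all features. The part of this in the Slamf1 difference was not tested.

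Slamf6 encodes Ly108, a self-ligand SLAM receptor with a known part in NKT cell selection. Wild-type libraries 1 to 5 gave 32.4, 49.6, 48.0, 49.2 and 48.1 FPKM. The Bcl11bm/m libraries gave 101.3, 73.8 and 64.6 FPKM and the cKO libraries 63.9, 54.2, 71.9 and 69.9 FPKM. Every mutant library of either kind was above every wild-type library, the mutants overlapped each other, and wild-type library 1 and Bcl11bm/m library 1 stood furthest from their groups.

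Slamf6 was 1.73-fold higher in Bcl11bm/m than in wild-type cells, a log2 difference of 0.79 (SE 0.19, 95% interval 0.35 to 1.23, limma adjusted p = 0.0242, exact permutation p = 0.0357). In cKO cells it was 1.43-fold higher, a log2 difference of 0.51 (SE 0.15, 95% interval 0.18 to 0.85, limma adjusted p = 0.0483). The exact permutation test gave p = 0.0159 there, the smallest for 4 against 5 libraries. Between the mutants the difference was 0.28, with a 95% interval from -0.13 to 0.68 (limma adjusted p = 0.332). The rise in Bcl11bm/m cells lost its call without Bcl11bm/m library 1 or without Bcl11bm/m library 2, with limma adjusted p up to 0.0853. The rise in cKO cells kept its call only without wild-type library 1 or without cKO library 2, lost it without any other single library (limma adjusted p up to 0.132), and had 0.0655 with no filter on low features.

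Ly9 encodes CD229, a self-ligand SLAM receptor. Its levels were 23.7, 28.3, 31.1, 35.0 and 25.8 FPKM in the wild-type libraries. They were 49.6, 39.9 and 40.4 FPKM in Bcl11bm/m cells and 32.5, 30.4, 41.2 and 29.8 FPKM in cKO cells. The Bcl11bm/m libraries all exceeded the wild-type ones, and the cKO libraries overlapped both groups.

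Ly9 rose 1.49-fold in Bcl11bm/m cells, a log2 difference of 0.58 (SE 0.15, 95% interval 0.24 to 0.91, limma adjusted p = 0.0285, exact permutation p = 0.0357). That call was the least firm of the 3: it was lost on leaving out wild-type library 2 or 5 or any 1 of the 3 Bcl11bm/m libraries, with limma adjusted p up to 0.109. In cKO cells the difference from wild-type was 0.21 with a 95% interval from -0.11 to 0.53 (limma adjusted p = 0.348). Between the mutants it was 0.37 with a 95% interval from 0.04 to 0.69 (limma adjusted p = 0.139). Slamf6 and Ly9 are also known from B and NK cells. Within the Bcl11bm/m group, the B cell, NK and myeloid marker sums were highest in the library that was highest for both. Bcl11bm/m library 1, the highest for both genes, had the highest sums of its group over lists of 8 B cell markers (36.4 FPKM, the others 8.25 and 8.53, wild-type 13.3 to 21.3), 10 NK markers (28.3, the others 18.4 and 26.7, wild-type 2.51 to 5.8) and 11 myeloid markers (57.7, the others 17.1 and 23, wild-type 11.01 to 15.05). In Bcl11bm/m libraries 2 and 3 the B cell sums thus lay below every wild-type library, while Slamf6 and Ly9 lay above. Over dendritic cell markers, Bcl11bm/m library 1 had the lowest sum of its group (5.87 FPKM, the others 6.52 and 7.44). Its ILC2 marker sum (61.2 FPKM) lay between those of the others (61.9 and 48.5). A higher B cell sum stood in cKO library 1 (37.9 FPKM) and a higher NK sum in cKO library 3 (28.5 FPKM). Of the tested B cell, NK and myeloid markers, 0 of 3, 3 of 3 and 2 of 6 rose in Bcl11bm/m cells, beside 9.92% of all features past the threshold and higher. In wild-type cells 2 of the 10 NK markers averaged at least 1 FPKM. Klrb1c, at 0 to 0.605 FPKM there, entered the test through mutant libraries. The myeloid genes S100a8 and S100a9 were listed at 0 in all wild-type and Bcl11bm/m libraries. In Bcl11bm/m library 1, Lyz2 (37.7 FPKM), Cd68 (7.72), Mpeg1 (4.33), Fcgr3 (3.02), Csf3r (1.57), Csf1r (1.49) and Emr1 (1.32) exceeded every wild-type library. Itgam (0.571 FPKM) lay below every wild-type library there, and Cd14 was listed at 0. Without that library the differences from wild-type were 0.61 for Slamf6 and 0.48 for Ly9 (limma adjusted p = 0.0853 and 0.109), and the part of other cells in them was not tested.

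Counted by overlap alone, the Bcl11bm/m and wild-type libraries did not overlap for 3 of the 5 tested members, Slamf1, Slamf6 and Ly9, beside 25.4% of all tested features. The cKO and wild-type libraries did not overlap for 1, Slamf6, beside 16.1%, and those of the mutants for 1, Slamf1, beside 26.7%.

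**Figure D2:**
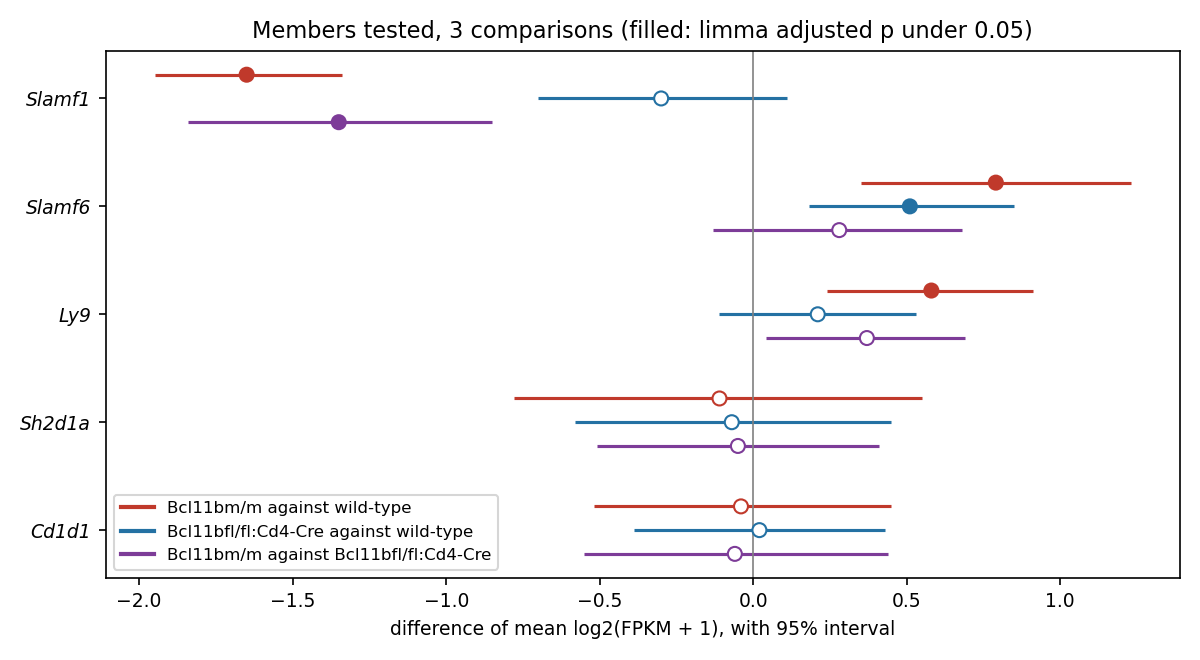
Log2 differences of the 5 tested members in the 3 comparisons (colours) on the log2(FPKM + 1) scale, with 95% intervals from limma and filled points where its adjusted p was under 0.05. Slamf1 lies at -1.65 and -1.35 for Bcl11bm/m against wild-type and against Bcl11bfl/fl:Cd4-Cre (cKO), and the intervals of Sh2d1a and Cd1d1 cross 0 in all 3 comparisons.

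Ratios of 2 genes within a library do not depend on how libraries are scaled to each other, and Slamf1 served as the base. For each unit of Slamf1, wild-type libraries held 1.5 to 2.11 of Slamf6. Bcl11bm/m libraries held 8.95 to 14.7 and cKO libraries 2.17 to 5.4, so that the 3 groups did not overlap. The ratio of Ly9 to Slamf1 was 0.843 to 1.38 in wild-type, 4.87 to 7.18 in Bcl11bm/m and 1.22 to 3.09 in cKO libraries, where only Bcl11bm/m stood apart. Both ratios carry the Slamf1 difference within them. For Cd84, a cluster gene whose own levels overlapped in all groups, the ratio to Slamf1 also set Bcl11bm/m apart. It was 1.22 to 2.62, 4.06 to 6.99 and 1.43 to 3.22 in the same order of groups.

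The other expressed genes of the cluster, Cd84 and Cd48, which were added for this after their values were seen, lie on either side of Slamf1. Cd84 encodes another self-ligand SLAM receptor and measured 56.6, 32.4, 36.6, 37.8 and 37.3 FPKM in wild-type cells, 48.3, 36.9 and 29.3 in Bcl11bm/m cells and 36.3, 36.3, 42.8 and 32.3 in cKO cells. Cd48, the gene of the 2B4 ligand, measured 16.2 to 31.7, 19.1 to 36.6 and 15.3 to 30.2 FPKM in the same order of groups. All 3 groups overlapped for both genes. From the Cd244 end to the Slamf6 end, the cluster in Bcl11bm/m cells thus held Cd244 near 0, Ly9 higher than in wild-type, Slamf7 (listed at 0 in all wild-type libraries and at most at 0.387 FPKM elsewhere), Cd48 overlapping, Slamf1 lower, Cd84 overlapping and Slamf6 higher. Over a wider list of 13 neighbouring genes on chromosome 1, 8 were tested and 2 rose and 1 fell in Bcl11bm/m cells, all of them members, beside 17.3% of all features past the threshold and with a median log2 difference of 0.11 beside -0.021 over all features. In cKO cells 1 of the 8 rose, Slamf6, beside 14.5% of all features past the threshold, and the median was 0.03 beside -0.091.

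**Figure D3:**
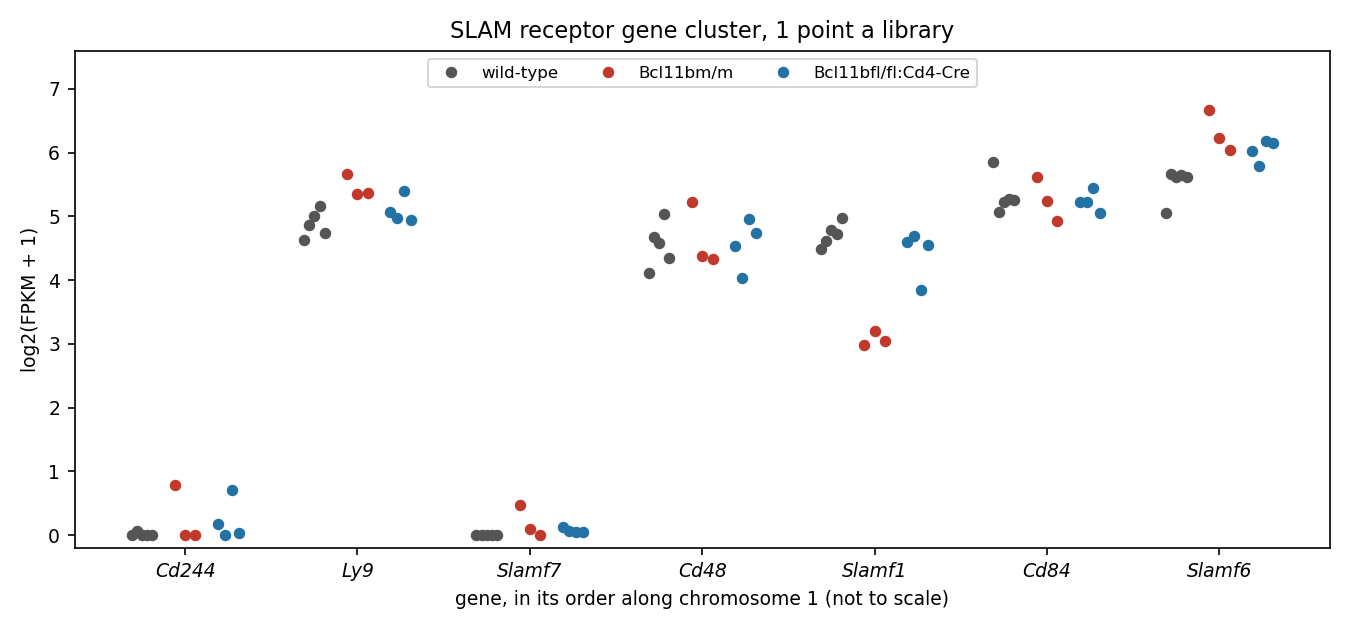
Level of the 7 SLAM cluster genes as log2(FPKM + 1), 1 point per library, with the genes in their order along chromosome 1 (not to scale) for wild-type, Bcl11bm/m and Bcl11bfl/fl:Cd4-Cre (cKO) cells. Slamf1 in Bcl11bm/m libraries drops below both other groups between Cd48 and Cd84, whose groups overlap, while Slamf6 at the end of the cluster is above wild-type in all 7 mutant libraries.

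Cd244 encodes 2B4. It was listed at 0 in 4 of 5 wild-type libraries and at 0.0454 FPKM in wild-type library 2, which corresponds to an estimated single fragment. In Bcl11bm/m library 1 it measured 0.719 FPKM, and it was listed at 0 in libraries 2 and 3. The cKO libraries gave 0.128, 0, 0.64 and 0.0207 FPKM. So 1 library of each mutant carried most of its signal and the groups overlapped, with exact permutation p = 0.75 and 0.175 against wild-type and p = 1 between the mutants.

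A count of 3 fragments would have stood at 0.122 to 0.21 FPKM for Cd244 in wild-type libraries. Bcl11bm/m library 1, with an estimated 7.0 fragments, lay at least 3.43-fold above the highest of these floors, and cKO library 3, with 39.7 fragments, at least 3.05-fold above it. Those are also the libraries with the highest sums over a list of 10 NK cell markers, 28.3 and 28.5 FPKM, where wild-type libraries held 2.51 to 5.8, the other Bcl11bm/m libraries 18.4 and 26.7, and cKO libraries 2.27 at the lowest. A different gene made up most of each sum: Tyrobp, also used by myeloid cells, measured 21.2 FPKM in Bcl11bm/m library 1 and 4.55 FPKM in cKO library 3. Klrb1c, the NK1.1 gene, measured 0.301 FPKM in Bcl11bm/m library 1, below 6.94 and 5.41 FPKM in libraries 2 and 3, and 21.8 FPKM in cKO library 3. Of the defining NK genes, Ncr1, Klra1, Klra8 and Klre1 were listed at 0 in both of these libraries, and each was above 0 in 1 other mutant library at most. Nkg7 measured 1.2 and 1.21 FPKM in the pair, beside 2.6 in cKO library 1 and at most 0.597 elsewhere, and Eomes 0.106 and 0.307 FPKM, the latter the highest of all 12 libraries. Prf1 measured 5.53 FPKM in Bcl11bm/m library 1, above every wild-type library, and 0.584 in cKO library 3, below every one. Klrd1 and Klrk1, not on that list, measured 0.552 and 0.124 FPKM in Bcl11bm/m library 1. In cKO library 3 they measured 5.49 and 0.789 FPKM, and both were listed at 0 in all wild-type libraries. The part of NK cells in the Cd244 values was not tested.

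Sh2d1a encodes SAP (chrX:39855630-39876874, plus strand, build NCBIM37). It was the most abundant member in all 3 groups. Its levels were 97.3, 169, 197, 233 and 142 FPKM in wild-type, 202, 128 and 126 in Bcl11bm/m and 151, 130.1, 180.4 and 156 in cKO libraries. All groups overlapped, and the spread was widest in wild-type cells, with library 1 the lowest of all 12. The log2 difference from wild-type was -0.11 in Bcl11bm/m cells (95% interval -0.78 to 0.55, limma adjusted p = 0.835) and -0.07 in cKO cells (95% interval -0.58 to 0.45, limma adjusted p = 0.882). Between the mutants it was -0.05 (95% interval -0.51 to 0.41, limma adjusted p = 0.891). Both signs against wild-type turn under other scalings of the libraries.

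The ratio of Sh2d1a to Slamf6, the adaptor to a receptor it serves, was lower in mutant libraries. Wild-type libraries held 2.95 to 4.74 of Sh2d1a per unit of Slamf6, cKO libraries 2.23 to 2.51 and Bcl11bm/m libraries 1.73 to 1.99. The groups did not overlap. This ratio carries the Slamf6 difference within it.

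Cd1d1 encodes CD1d, the lipid-presenting molecule on the selecting DP thymocyte (chr3:86799756-86803363, minus strand, build NCBIM37). It measured 16, 23.3, 26.4, 25.1 and 18.1 FPKM in wild-type libraries. The values were 26.1, 21.8 and 15.9 FPKM in Bcl11bm/m cells and 21.0, 16.9, 28.7 and 21.7 FPKM in cKO cells. The groups overlapped throughout. Log2 differences were -0.04 for Bcl11bm/m against wild-type (95% interval -0.52 to 0.45, limma adjusted p = 0.935), 0.02 for cKO against wild-type (95% interval -0.39 to 0.43, limma adjusted p = 0.955) and -0.06 between the mutants (95% interval -0.55 to 0.44, limma adjusted p = 0.887). Cd1d1 has a near-identical neighbour, Cd1d2, and the way shared fragments were divided makes both levels uncertain; Cd1d1 measured 1.84 to 2.96 times Cd1d2 in wild-type, 2.2 to 2.86 times in Bcl11bm/m and 1.13 to 2.77 times in cKO libraries.

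Zbtb16 encodes PLZF (chr9:48462416-48644050, minus strand, build NCBIM37). Wild-type libraries 1 to 5 gave 0.0112, 0.0099, 0, 0.0099 and 0 FPKM, under an estimated 1 fragment each. The Bcl11bm/m libraries gave 0.149, 0.0099 and 0 FPKM. The cKO libraries gave 0.917, 0.062, 0.12 and 0.69 FPKM. Every cKO library exceeded every wild-type library, with libraries 1 and 4 far above the other two, and the Bcl11bm/m libraries overlapped both groups.

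At this depth PLZF transcript was scarcely detectable outside cKO libraries 1 and 4. Those rested on an estimated 205.4 and 45.2 fragments and stood at least 6.03-fold and at least 4.54-fold above the highest level, 0.152 FPKM, that 3 fragments would have given in a wild-type library. Library 2, with 3.3 fragments, lay below and library 3, with 10.2 fragments, within the 0.088 to 0.152 FPKM that 3 fragments give in the shallower wild-type libraries, so such levels were at the limit of detection there. The exact permutation test for cKO against wild-type gave p = 0.0159, the smallest possible, with a log2 difference of 0.48 on the log2(FPKM + 1) scale that understates changes of genes this low. Without libraries 1 and 4 the difference was 0.12 and the exact permutation p = 0.0952, the smallest for 2 against 5 libraries. In limma without the filter on low features the adjusted p was 0.123. For Bcl11bm/m against wild-type the exact permutation p was 0.643, and between the mutants it was 0.171.

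**Figure D4:**
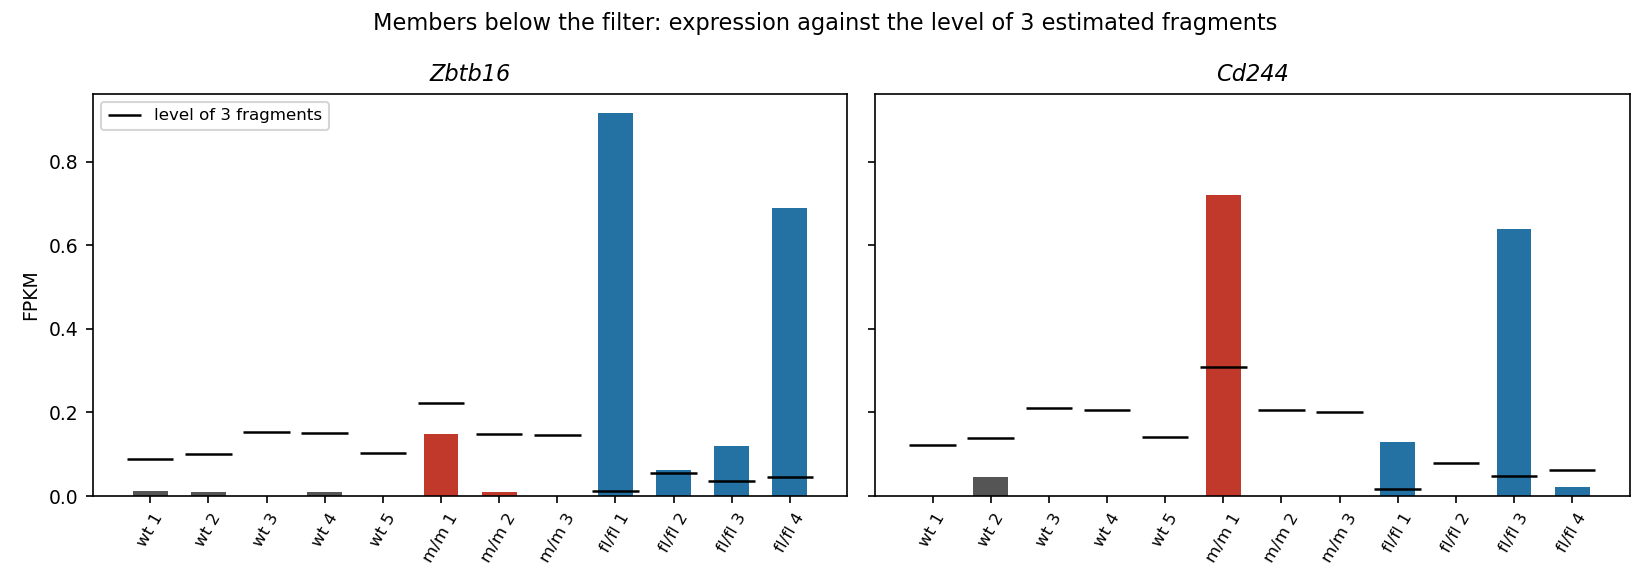
Level of Zbtb16 and Cd244 in each library (bars, in FPKM; wt is wild-type, m/m is Bcl11bm/m and fl/fl is cKO), with a line at the level that 3 fragments would give in that library. Zbtb16 reaches 0.917 and 0.69 in Bcl11bfl/fl:Cd4-Cre (cKO) libraries 1 and 4, and Cd244 reaches 0.719 in Bcl11bm/m library 1 and 0.64 in cKO library 3.

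The Zbtb16 values came from libraries that differed from the other cKO libraries in further genes. The 3 tested features whose log2(FPKM + 1) followed Zbtb16 most closely over the 12 libraries were H2-T3 (Pearson r = 0.957), which encodes the thymus leukaemia antigen, the small nuclear RNA gene Rnu11 (r = 0.956) and the B cell kinase gene Blk (r = 0.952). H2-T3 measured 95.6 and 141 FPKM in libraries 1 and 4 and at most 1.52 FPKM in the other 10. Rnu11 measured 17.3 and 29.3 FPKM there and was listed at 0 elsewhere. Blk reached 9.91 and 3.4 FPKM, and the sums over a list of 8 B cell markers that includes Blk were 37.9 and 23.7 FPKM, beside 17.4 and 11.9 FPKM in cKO libraries 2 and 3, 13.3 to 21.3 FPKM in wild-type and 8.25 to 36.4 FPKM in Bcl11bm/m libraries. Blk was picked for following Zbtb16 over these libraries, so the sums are not separate from that choice. Cd79b made up most of the sums in libraries 1 and 4, at 21.2 and 18.1 FPKM. It measured 13.4 and 9.78 FPKM in cKO libraries 2 and 3 and 12.4 to 20.7 FPKM in wild-type. Cd79a measured 3.92 and 1.38 FPKM in libraries 1 and 4, 1.78 and 0.911 FPKM in libraries 2 and 3 and at most 0.446 FPKM in wild-type. Thymic expression of H2-T3 is known to differ among mouse strains. Listed genes of T cells also set libraries 1 and 4 apart, and were picked here for their values. Maf measured 12.4 and 3.82 FPKM in libraries 1 and 4 and 1.24 and 0.551 FPKM in libraries 2 and 3. In the same order, Rora measured 2.41, 2.4, 0.631 and 1.62 FPKM and Ptcra 67.0, 64.7, 27.0 and 8.97 FPKM. Egr1 went the other way, at 5.2, 4.0, 35.6 and 26.8 FPKM. Whether background, B cells or a batch had a part in the Zbtb16 values was not tested. With libraries 1 and 4 left out, 44 features instead of 1564 passed the threshold against wild-type, and none of the members did (the log2 difference of Slamf6 was 0.466, close to the 0.51 with all libraries, with an adjusted p of 0.29 in limma).

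The order of levels among the 5 tested members, which FPKM allows across genes because it is per length, changed at 1 place. In wild-type cells it ran Sh2d1a, Slamf6, Ly9, Slamf1 and Cd1d1, with Cd244 and Zbtb16 near 0. There, only the steps from Sh2d1a to Slamf6 and from Cd1d1 down to Cd244 had ranges that did not overlap once Cd84 and Cd48 were placed in the order. In Bcl11bm/m cells Slamf1 was last of the 5, at a mean of 7.44 FPKM below Cd1d1 at 21.3 FPKM, and the ranges of these neighbours did not overlap. In cKO cells Slamf1 at 21.0 FPKM and Cd1d1 at 22.1 FPKM overlapped. Within groups the coefficient of variation of the 5 members ranged from 9.0% for Slamf1 in Bcl11bm/m cells to 30.9% for Sh2d1a in wild-type cells.

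The features most like each of the other members were found in the same way, over all 12 libraries, which share the group differences, the differences in depth and the scaling of each library. Slamf1 was followed by Gtf2ird1 (r = 0.976), Hsdl1 (r = 0.974) and Klc3 (r = 0.971). Slamf6 was followed by Trafd1 (r = 0.972) and Zbp1 (r = 0.972), both known as interferon-inducible genes, and by Ppp2r5a (r = 0.959). Gtf2ird1, for example, measured 29.3 to 37.7 FPKM in wild-type, 2.15 to 3.73 in Bcl11bm/m and 11.8 to 30.0 in cKO libraries. Zbp1 measured 6.44 to 25.9, 42.6 to 98.3 and 25.4 to 55.8 FPKM in the same order, with the lowest value in wild-type library 1 and the highest in Bcl11bm/m library 1, the libraries that were lowest and highest for Slamf6. Ly9 was followed by Snx1 (r = 0.979), Arap1 (r = 0.960) and Vasp (r = 0.954). Sh2d1a was followed by the ribosomal protein genes Rpl9 (r = 0.986), Rpl18 (r = 0.979) and Rps21 (r = 0.974), Cd1d1 by Mgat2 (r = 0.915), Serf2 and AI467606 (both r = 0.860), and Cd244 by Samhd1 (r = 0.914), Ccr7 (r = 0.894) and Ctsc (r = 0.890). These coefficients are descriptions over 12 libraries.

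Of 12 other SLAM receptors and signalling partners, 7 were tested. In Bcl11bm/m cells 1 rose and 2 fell, beside 17.3% of all features past the threshold, with a list median of 0.07: Inpp5d, which encodes the phosphatase SHIP1, fell by 1.24 on the log2 scale (SE 0.23, limma adjusted p = 0.00877), and Fyn, the kinase that SAP recruits, fell by 0.39 (SE 0.10, limma adjusted p = 0.0311). Ptpn6, the gene of the phosphatase SHP-1, rose by 0.46 (SE 0.13, limma adjusted p = 0.0477). The calls of Fyn and Ptpn6 were lost on leaving out 6 and 8 of the 8 single libraries, respectively. In cKO cells none of the 7 passed, nor did any between the mutants, with a median in cKO cells of -0.05 beside -0.091 over all features, and Fyn differed there by -0.05 (95% interval -0.29 to 0.19).

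Of 14 genes that serve the loading of lipid onto CD1d, 13 were tested. In Bcl11bm/m cells 1 passed, in cKO cells none and between the mutants 1, beside 17.3%, 14.5% and 10.2% of all features, so that these counts say nothing particular about the list. Ctsl was the one in Bcl11bm/m cells: this cathepsin L gene fell by 0.92 on the log2 scale (SE 0.18, limma adjusted p = 0.00897), from 62.5 to 32.1 FPKM in the group means. Apart from the replicate block and single libraries left out, 1 of 10 alternatives lost that call (limma adjusted p = 0.39). The difference stayed at -0.82 or below in all 10. The list median was 0.16 in Bcl11bm/m and -0.04 in cKO cells, where none passed and where Ctsl measured 411 FPKM in library 2 and 27.4 to 39.0 in the other 3. Gla, which encodes the lysosomal alpha-galactosidase, was the only one to differ between the mutants, higher by 0.66 in Bcl11bm/m cells (SE 0.14, limma adjusted p = 0.028), a call lost on leaving out 5 of the 7 single libraries.

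Transcription factors of the NKT lineage moved in both directions. Of 25 genes 23 were tested: 5 rose and 3 fell in Bcl11bm/m cells, and 3 rose and 4 fell in cKO cells, beside 17.3% and 14.5% of all features past the threshold, with list medians of 0.14 and 0.00. Zbtb7b, the gene of ThPOK, which has been described in NKT cells as well as in helper T cells, rose from a mean of 0.0618 FPKM in wild-type to 46.0 in Bcl11bm/m and 30.7 in cKO cells (log2 differences 5.47 and 4.66, SE 0.12 and 0.39, limma adjusted p = 2.85e-07 and 0.000659). Id2, an inhibitor of E proteins, rose by 2.73 and 2.96 (SE 0.19 and 0.43, limma adjusted p = 6.61e-05 and 0.00442), and Klf2, a regulator of thymic exit, by 2.59 and 2.23 (SE 0.36 and 0.41, limma adjusted p = 0.00216 and 0.00885). Egr1, an early response factor downstream of the T cell receptor, fell by 1.27 in Bcl11bm/m cells (SE 0.24, limma adjusted p = 0.00852) and by 1.96 in cKO cells (SE 0.56, limma adjusted p = 0.0439). The cKO value of Egr1 rested on libraries 1 and 4, at 5.2 and 4.0 FPKM beside 35.6 and 26.8 in libraries 2 and 3 and 37.8 to 70.3 in wild-type, and without them the difference was -0.70 (limma adjusted p = 0.22). Maf rose by 0.99 in Bcl11bm/m cells (SE 0.12, limma adjusted p = 0.000971). In cKO cells the Maf difference was larger, 1.44, but missed the threshold (SE 0.52, limma adjusted p = 0.0931). Maf measured 12.4 and 3.82 FPKM in cKO libraries 1 and 4, beside 1.24 and 0.551 in libraries 2 and 3 and 0.281 to 0.736 in wild-type. The E protein gene Tcf3 fell by 0.48 in cKO cells (SE 0.12, limma adjusted p = 0.0309). Cul3, whose product binds PLZF, fell there by 0.52 (SE 0.13, limma adjusted p = 0.0312). The falls of Tcf3 and Cul3 lost their calls on leaving out 7 and 8 of 9 single libraries. Apart from the replicate block and single libraries left out, 1 alternative each removed the Bcl11bm/m calls of Maf and Egr1 (limma adjusted p = 0.209 and 0.142). Their differences stayed at 0.79 or above and at -1.03 or below under those alternatives. Tcf12, Lef1 and Runx1 were higher in Bcl11bm/m than in cKO cells, by 0.82, 0.67 and 0.58 (SE 0.12, 0.11 and 0.11, limma adjusted p = 0.0111, 0.0161 and 0.0193), and leaving out 1 library removed the call in 0, 2 and 3 of 7 cases, respectively. Without cKO libraries 1 and 4 their differences were 0.86, 0.58 and 0.68 (limma adjusted p = 0.0971, 0.114 and 0.0922). Of the 5 named list genes that differed between the mutants, which include Gla and Ccl5, 0 kept their call there.

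Most tested receptors and effectors of innate-like T cells rose in both mutants. Of 24 genes 14 were tested, and 10 rose and none fell in Bcl11bm/m cells, beside 9.92% of all features past the threshold and higher. The list median was 1.82 beside -0.021 over all features, although Zbtb16 stayed within the wild-type range in 2 of those 3 libraries. In cKO cells 8 rose, beside 4.65% of all features, and 1, Icos, fell, with a median of 1.5 beside -0.091. The filter used the mean over all 12 libraries. Of the 24 genes, 7 averaged at least 1 FPKM in wild-type, 13 in Bcl11bm/m and 15 in cKO cells. Some of the 14, such as Il18r1 and Il7r, thus entered through mutant libraries and had little room to fall. The counts and medians of this list therefore follow in part from the filter. The interleukin 18 receptor gene Il18r1 rose from a mean of 0.24 FPKM in wild-type to 5.42 and 5.69 FPKM (log2 differences 2.37 and 2.26, SE 0.10 and 0.32, limma adjusted p = 2.63e-06 and 0.00415). Il17rb rose by 2.15 and 1.53 (SE 0.13 and 0.24, limma adjusted p = 3.13e-05 and 0.00517), and Il7r by 4.04 and 2.01 (SE 0.22 and 0.37, limma adjusted p = 1.52e-05 and 0.00857).

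In both mutants, Bcl11bm/m given first, Il18rap rose by 1.25 and 2.08 (SE 0.10 and 0.45, limma adjusted p = 0.000115 and 0.0149) and the memory marker Cd44 by 2.69 and 1.48 (SE 0.26 and 0.33, limma adjusted p = 0.000388 and 0.0178). The interleukin 12 receptor genes also rose in both, Il12rb2 by 3.04 and 3.12 (SE 0.33 and 0.35, limma adjusted p = 0.000617 and 0.00186) and Il12rb1 by 1.44 and 1.15 (SE 0.28 and 0.22, limma adjusted p = 0.00946 and 0.0104). Of the 13 named genes of the lists other than the members that passed in cKO cells, 2 (Zbtb7b and Il17rb) passed without cKO libraries 1 and 4, where 2 libraries remain. The differences of the other 11 kept their direction and, apart from Egr1, stayed within 1.5 times their size, for example 3.06 for Id2, 2.51 for Klf2, 2.38 for Il18r1 and 2.84 for Il12rb2. Ccl5 was the only one of the list to differ between the mutants, higher by 2.02 in Bcl11bm/m cells (SE 0.51, limma adjusted p = 0.0498). That call was lost on leaving out 6 of the 7 single libraries, and without Bcl11bm/m library 1, the exception, the difference was 1.33. The cytokine genes Ifng and Il17a were listed at 0 in all wild-type and all Bcl11bm/m libraries, and Il4 was listed at 0 there except for 0.605 FPKM in Bcl11bm/m library 2. Sums over NK markers (18.4 to 28.3 FPKM in Bcl11bm/m against 2.51 to 5.8 in wild-type) and over post-selection thymocyte markers, which include Il7r and Klf2 (222 to 336 against 86.7 to 139.7 FPKM), were higher in Bcl11bm/m libraries. So were the sums over 7 ILC2 markers (48.5 to 61.9 against 28.8 to 45.7 FPKM, with Gata3 and Rora among them), 11 myeloid markers (17.1 to 57.7 against 11.01 to 15.05 FPKM) and 6 dendritic cell markers (5.87 to 7.44 against 0.75 to 1.82 FPKM, with Zbtb46 and Batf3 listed at 0). Gata3 alone made up most of each ILC2 sum, at 47.6 to 59.6 FPKM in Bcl11bm/m and 27.7 to 45.1 FPKM in wild-type libraries. None of the 2 tested ILC2 markers passed the threshold in Bcl11bm/m cells, while 2 of 6 myeloid and 1 of 2 dendritic ones rose. Of all features, 9.92% were past the threshold and higher. In wild-type cells 4 of the 11 myeloid and 0 of the 6 dendritic cell markers averaged at least 1 FPKM. Of the ILC2 genes, Il5 measured 2.47 and 0.728 FPKM in Bcl11bm/m libraries 1 and 2 and was listed at 0 in the other 10 libraries, Il1rl1 measured 0.207 to 0.438 FPKM in Bcl11bm/m against 0.0175 to 0.173 in wild-type libraries, and Klrg1 and Areg were listed at 0 in all 12. In cKO libraries, 3 of 6 tested post-selection markers rose and 1 fell (sums of 66.5 to 180.3 FPKM), 2 of 3 B cell markers rose (11.9 to 37.9 FPKM), none of 3 NK markers rose and 1 fell (2.27 to 28.5 FPKM), and none of 6 myeloid markers rose and 2 fell (4.89 to 11.6 FPKM), all by limma. Of all features, 14.5% were past the threshold and 4.65% past it and higher. In wild-type cells 4 of 8 post-selection and 1 of 8 B cell markers averaged at least 1 FPKM. The other tested markers of these 2 lists entered through mutant libraries. The part of such cells in the rises of either mutant was not tested.

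**Figure D5:**
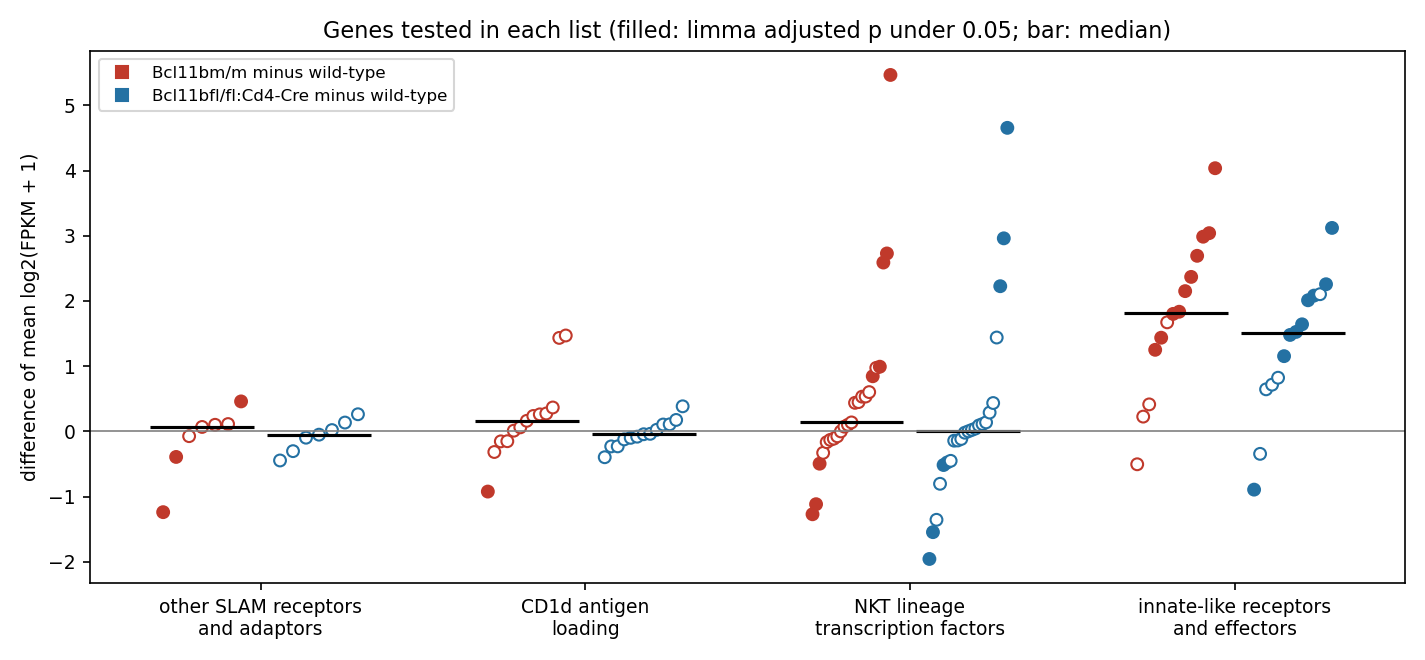
Log2 differences from wild-type of the tested genes of each list, for Bcl11bm/m and Bcl11bfl/fl:Cd4-Cre (cKO) cells, with 1 point per gene, filled where the limma adjusted p was under 0.05, and a bar at the list median. The innate-like receptors and effectors have medians of 1.82 and 1.5, whereas the SLAM, CD1d loading and transcription factor lists have medians between -0.05 and 0.16. Some genes of the innate-like list passed the filter only through mutant libraries.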

How the data were processed

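RNA-seq was carried out on 12 libraries labelled as pre-selection DP thymocytes. As deposited by the authors, the table gives FPKM per gene and library, which per the labels and the study's methods were made by mapping to mm9 with TopHat2 and quantification with Cufflinks 2.1.1; no scaling between libraries and no counts accompany them. The extraction text in the labels describes a double-negative NKT cell sort and a low-input kit. The study's methods differ, and the texts do not settle which applied. By their markers the libraries were those of DP thymocytes, with Cd4 at 281 FPKM or more and Cd8a at 591 FPKM or more in each. All 12 columns were used. FPKM were transformed as log2(FPKM + 1), so that folds of low genes are understated. Features that averaged 1 FPKM or more across the 12 libraries (10780 of 23234) were fitted with limma 3.58.1 (lmFit, eBayes with trend; R 4.3.3) on the libraries of each pair of groups; two-sided p-values were adjusted by Benjamini-Hochberg over all of these features and called under 0.05. Members were also tested alone with exact two-sided permutation tests over libraries. Limma was also run on simulated data, and no result reported here rests on that run.

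Depth was estimated from the steps of FPKM in 5331 single-transcript genes of at least 1000 bases, assuming fragments of 200 bases. From 65.4% to 72.1% of low values per library fell within 0.1 of a whole fragment, where an even spread gives 20%; the counts are therefore approximate. Floors of 3 fragments use these depths.

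The 7 members and all gene lists were chosen with earlier results of these data known. Named genes were the members, Bcl11b, up to 5 genes per list and comparison by smallest adjusted p, and the 3 features most correlated with each member. Cd84, Cd48, Cd1d2, Slamf7, Rag1, Ptcra, Rora, Icos, Ifng, Il17a, Il4 and single marker genes of other cells were added after their values were seen. Gene positions are GENCODE on NCBIM37 and promoters RefSeq on GRCm38.p6. Alternatives covered the pseudocount, filters, scalings, a fit of all groups, weights, robust estimation, the replicate number as a block, and each library left out.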

Additional observations from a re-analysis of the deposited data

Results flagged for a closer look

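In 10 of 103 groups of 4 or 5 libraries examined for the named genes, 1 library lay far from the rest by Dixon's test, where chance gives about 1 in 20, here 5.2. Among the members, Slamf6 in wild-type library 1 measured 32.4 FPKM while the other 4 lay between 48.0 and 49.6, and Cd244 in wild-type library 2 measured 0.0454 FPKM while the others were listed at 0. Wild-type library 1 was also apart for Zbp1, at 6.44 FPKM against 22.2 to 25.9, and for Il18rap, at 0.0631 FPKM against 0. cKO library 3 was apart for Klf2, at 34.8 FPKM against 5.92 to 10.8, for Snx1, at 54.2 FPKM against 37.9 to 39.5, and for Ccr7, at 6.07 FPKM against 1.37 to 1.83. Ctsl measured 411 FPKM in cKO library 2 against 27.4 to 39.0, Gla 2.32 FPKM in wild-type library 4 against 1.23 to 1.51, and Zbtb7b 0.215 FPKM in wild-type library 3 against 0 to 0.0471.

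A direct comparison of the mutants, which equals the difference of their effects against the shared wild-type libraries, passed the limma threshold for 10 named genes. Slamf1 differed by -1.35 (adjusted p = 0.0125), and the 3 genes chosen for their likeness to it over the same libraries also lay lower in Bcl11bm/m cells: Gtf2ird1 by -2.49 (adjusted p = 0.00545), Hsdl1 by -1.91 (adjusted p = 0.00756) and Klc3 by -1.21 (adjusted p = 0.0222). The other 6 were higher in Bcl11bm/m cells: Bcl11b by 1.79 (adjusted p = 0.000384), Ccl5 by 2.02 (adjusted p = 0.0498), Tcf12 by 0.82 (adjusted p = 0.0111), Lef1 by 0.67 (adjusted p = 0.0161), Gla by 0.66 (adjusted p = 0.028) and Runx1 by 0.58 (adjusted p = 0.0193). Without cKO libraries 1 and 4, Bcl11b alone of these 10 genes kept its call (limma adjusted p = 0.0228).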

How the results depend on the processing

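Slamf1 in Bcl11bm/m against wild-type cells kept its direction and its call under all alternatives run, with log2 differences from -1.76 to -1.55. The other member calls depended on the libraries. In Bcl11bm/m against wild-type, 3 members passed, 1 to 3 on leaving out 1 library; 1866 features passed, 1021 to 2349 on leaving out 1 library, 1189 with a 5 FPKM minimum and 3604 with library quality weights. In cKO against wild-type, 1 member passed, 0 to 1 on leaving out 1 library, 0 with no filter, 2 with equal totals over features other than short RNAs (Ly9 was added, adjusted p = 0.0369 in limma) and 0 without cKO libraries 1 and 4, a choice made after seeing the data; 1564 features passed, 700 to 2678 on leaving out 1 library, 3176 with weights and 44 without those libraries. Between the mutants, 1 member passed, 0 to 1 on leaving out 1 library and 0 without those libraries; 1102 features passed, 313 to 1121 on leaving out 1 library, 656 with a 5 FPKM minimum, 2173 with weights and 74 without those libraries. Leaving out wild-type library 1 and Bcl11bm/m library 1 together, also chosen after seeing the data, removed the Ly9 call (adjusted p = 0.0753 in limma). For Zbtb16 in cKO against wild-type, the log2 difference without cKO libraries 1 and 4 was 0.116, and no call is possible with 2 against 5 libraries (smallest exact permutation p = 0.0952). The cause of these shifts was not tested, beyond the smaller number of features or libraries.

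With the replicate number as a block, 1 member and 293 features passed in Bcl11bm/m against wild-type, 0 and 445 in cKO against wild-type, and 0 and 46 between the mutants. The deviations of same-numbered libraries from their group means had correlations of -0.211 to 0.152, so no pairing by number was seen. In groups this small, such correlations cannot show that no libraries were prepared together.

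Scaling moved the share of higher calls, which was 57.3% in Bcl11bm/m against wild-type (48.8% by quantile normalization up to 65.2% by equal totals), 32% in cKO against wild-type (46.3% by median ratios, 42.7% by quantiles, 53.5% by equal totals) and 74.6% between the mutants (51.6%, 52.2% and 64.8%). Differences near 0 changed sign. Against wild-type, Sh2d1a in Bcl11bm/m cells was 0.022 by quantiles and 0.004 with the block, and in cKO cells 0.043 by median ratios, 0.079 by quantiles and 0.088 by equal totals. Cd1d1 was 0.060 in Bcl11bm/m cells by equal totals, and in cKO cells -0.037 with the block and -0.088 with weights. Cd244 between the mutants was -0.076 with a pseudocount of 0.1 and -0.096 without cKO libraries 1 and 4, and in Bcl11bm/m against wild-type -0.016 without library 1 of each. On leaving out 1 library, the log2 difference in Bcl11bm/m against wild-type ran from -0.002 to 0.098 for Zbtb16, -0.336 to 0.019 for Sh2d1a, -0.19 to 0.149 for Cd1d1 and -0.013 to 0.378 for Cd244. In cKO against wild-type it ran from -0.245 to 0.068 for Sh2d1a and -0.109 to 0.134 for Cd1d1. Between the mutants it ran from -0.27 to 0.066 for Sh2d1a, -0.21 to 0.129 for Cd1d1 and -0.229 to 0.193 for Cd244. Depth limits Zbtb16 and Cd244, which no count test could reach here.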
